A study of Mus musculus with 18 samples.

Results

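The 10 genes described here belong to the blood-brain barrier, and were followed across both fractions and both treatments of a Cx3cr1-NuTRAP mouse experiment: the junction genes Cldn5, Ocln, Tjp1 and Esam, the solute carriers and lipid carrier Slc2a1, Mfsd2a, Slco1c1 and Slco1a4, and the efflux pumps Abcb1a and Abcg2. They were taken by gene symbol, 1 row each, from the 36172 genes of the deposited matrix, and all 10 passed the filter on low counts that left 14803 genes for testing. Mice of about 3 months carried Cx3cr1-cre/ERT2+; NuTRAP+, so that tamoxifen, given on 5 consecutive days, turned on a ribosomal protein tagged with EGFP where Cx3cr1 is expressed, in brain by microglia and other resident macrophages. Between 3 and 4 weeks later each mouse was injected once into the peritoneum with lipopolysaccharide at 5 mg/kg (LPS, a bacterial cell wall component used to provoke systemic inflammation) or with phosphate buffered saline (PBS), and a hemisected brain was taken after 24 h. Polyadenylated RNA was sequenced from the lysate before pull-down (input) and from the ribosomes captured with an antibody to GFP (positive fraction, by translating ribosome affinity purification, TRAP). The groups were Input PBS (4 libraries), Input LPS (4), Positive PBS (4) and Positive LPS (5), from 9 animals of which 2 PBS animals and 1 LPS animal were male. Every group carried the Cre driver, the reporter and tamoxifen, and there was no library from mice without Cre.

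The blood-brain barrier is formed by the endothelial cells of brain capillaries, held together by tight junctions and supported by pericytes and astrocyte endfeet. Tight junctions close the path between cells, few vesicles cross the cells, and nutrients therefore enter through dedicated carriers while pumps of the ABC family return many foreign compounds to the blood. Wnt signalling from neural tissue maintains this programme, and circulating LPS is widely used to study how inflammation alters it. Since these are bulk libraries, fewer cells of a type and less RNA per cell cannot be told apart, and none of the 10 genes is known as a marker of the Cx3cr1-expressing cells whose ribosomes carried the tag.

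The 17 libraries used held between 22968939 and 35123345 estimated counts, and the input library of LPS animal 271, with 1252 counts in all, was left out. Microglial markers showed what the pull-down enriched, with 10 of 10 called higher in the positive fraction of PBS animals and a median log2 ratio of 4.22. Endothelial identity genes were also higher there, 19 of 20 called with a median of 1.45, while 6 of 6 oligodendrocyte genes were lower with a median of -2.19. Of all tested genes 21% were called higher and 18.8% lower in this comparison. The part that endothelial RNA in the pull-down plays in the values below was not tested. Values are normalised counts, that is estimated counts divided by the size factor of the library, and are listed by animal in the order 268, 272, 273 and 506 for PBS, 266, 267, 270 and 507 for LPS input, and 266, 267, 270, 271 and 507 for LPS positive fraction. A gene was called where the Benjamini-Hochberg adjusted p of edgeR's quasi-likelihood test was under 0.05 and the higher group exceeded the lower by over 25%.

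The upstream sequences of 4 of the genes are shown because these genes gave the clearest rise (Cldn5), the clearest fall (Slco1c1), a fall of a junction gene (Ocln), and a neighbour of Slco1c1 whose groups overlapped (Slco1a4). Each is the 250 bases before the RefSeq start site on GRCm38.p6, 5′ to 3′ on the strand of the gene, and capitals mark matches, on either strand, to GGG and CC separated by any 5 bases, the frame of an NF-kB site.
Cldn5, chr16:18776597-18776846, plus strand: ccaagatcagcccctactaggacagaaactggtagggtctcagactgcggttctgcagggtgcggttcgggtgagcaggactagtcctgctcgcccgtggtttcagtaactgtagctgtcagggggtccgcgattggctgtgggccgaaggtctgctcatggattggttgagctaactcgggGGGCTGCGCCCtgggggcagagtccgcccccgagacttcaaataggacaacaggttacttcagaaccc
Ocln, chr13:100552499-100552748, minus strand: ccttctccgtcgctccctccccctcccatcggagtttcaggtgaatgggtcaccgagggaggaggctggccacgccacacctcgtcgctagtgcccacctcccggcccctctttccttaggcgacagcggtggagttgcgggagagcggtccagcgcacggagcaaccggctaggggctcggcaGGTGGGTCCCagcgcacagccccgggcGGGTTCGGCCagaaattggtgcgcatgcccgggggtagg
Slco1c1, chr6:141524104-141524353, plus strand: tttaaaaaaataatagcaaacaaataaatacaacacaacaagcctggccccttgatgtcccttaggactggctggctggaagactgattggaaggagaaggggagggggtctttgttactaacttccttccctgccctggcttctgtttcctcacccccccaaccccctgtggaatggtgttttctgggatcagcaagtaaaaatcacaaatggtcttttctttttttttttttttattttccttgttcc
Slco1a4, chr6:141856221-141856470, minus strand: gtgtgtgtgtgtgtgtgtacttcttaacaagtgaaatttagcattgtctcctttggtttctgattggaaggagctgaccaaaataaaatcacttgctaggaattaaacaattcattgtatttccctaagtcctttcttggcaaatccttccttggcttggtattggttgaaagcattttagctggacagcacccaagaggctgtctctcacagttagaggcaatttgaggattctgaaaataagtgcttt
This NF-kB frame occurred in 45.8% of the 32817 promoter windows of this length, and in 5 of the 8 members whose RefSeq start lay within 49 bases of the start in the deposited gene model (Cldn5, Ocln, Tjp1, Slc2a1 and Abcg2). Cldn5 held 2 overlapping matches, 1 on each strand. Ocln also held 2 matches, 1 on each strand. On both strands, CTTTGA, a core of the TCF/LEF site, was found in Mfsd2a alone among these 8 and in 13.8% of all windows. CCGGAA (12% of all windows), TTCCNGGAA (0.914%), TGANTCA (6.75%) and TGTTCT (16.1%) matched none of the 8. The windows of Slco1c1 and Slco1a4 held no match to any of the 6 motifs and 0 CpG dinucleotides, at 42.8% and 39.2% G and C, whereas the other 6 windows held between 10 and 22 CpG dinucleotides and all windows had a median of 6 and of 52.4% G and C. The RefSeq start of Abcb1a lay 93001 bases from the start in the deposited model and its window was left out, and Esam had no entry.

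In the absence of LPS the 10 genes spanned a wide range of levels. Per kb of exon in Input PBS, Slc2a1 stood first at 885 ± 71.4 normalised counts (SD, n = 4) and Abcg2 last at 32.4 ± 4.28. In between came Cldn5 (333 ± 68.6), Mfsd2a (331 ± 26.7), Tjp1 (258 ± 51.3), Slco1c1 (188 ± 23.6), Esam (113 ± 11.5), Abcb1a (88.4 ± 11.0), Slco1a4 (78.2 ± 19.5) and Ocln (60.6 ± 4.66). Per kb the libraries of Slc2a1 lay above those of all other members and those of Abcg2 below them. The last place of Abcg2 depends on the exon length used. Before that division its Input PBS counts, 235 to 310, overlapped the 238 to 281 of Ocln. The ranges of each neighbouring pair overlapped from Cldn5 down to Slco1c1 and again from Esam down to Ocln, so the order of these neighbours was not resolved. Genes further apart could still be told apart, with the libraries of Cldn5 and Mfsd2a all above those of Slco1c1 and the libraries of Esam and Abcb1a all above those of Ocln.

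The genes called with LPS did not all change in the same direction. In the positive fraction 5 of 10 were called: Cldn5 rose, and Ocln, Slc2a1, Slco1c1 and Abcb1a fell. The background was 33.8% of all tested genes called, 19% higher and 14.9% lower, so that 1 of 10 higher and 4 of 10 lower compares with these shares. In input 2 of 10 were called, Cldn5 higher and Slco1c1 lower, where 12.4% of all tested genes were called, 7.16% higher and 5.26% lower. Over the 10 genes the median log2 fold change was -0.54 for the positive fraction and 0.044 for input, against 0.011 and 0.0036 over all tested genes.

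**Figure D1:**
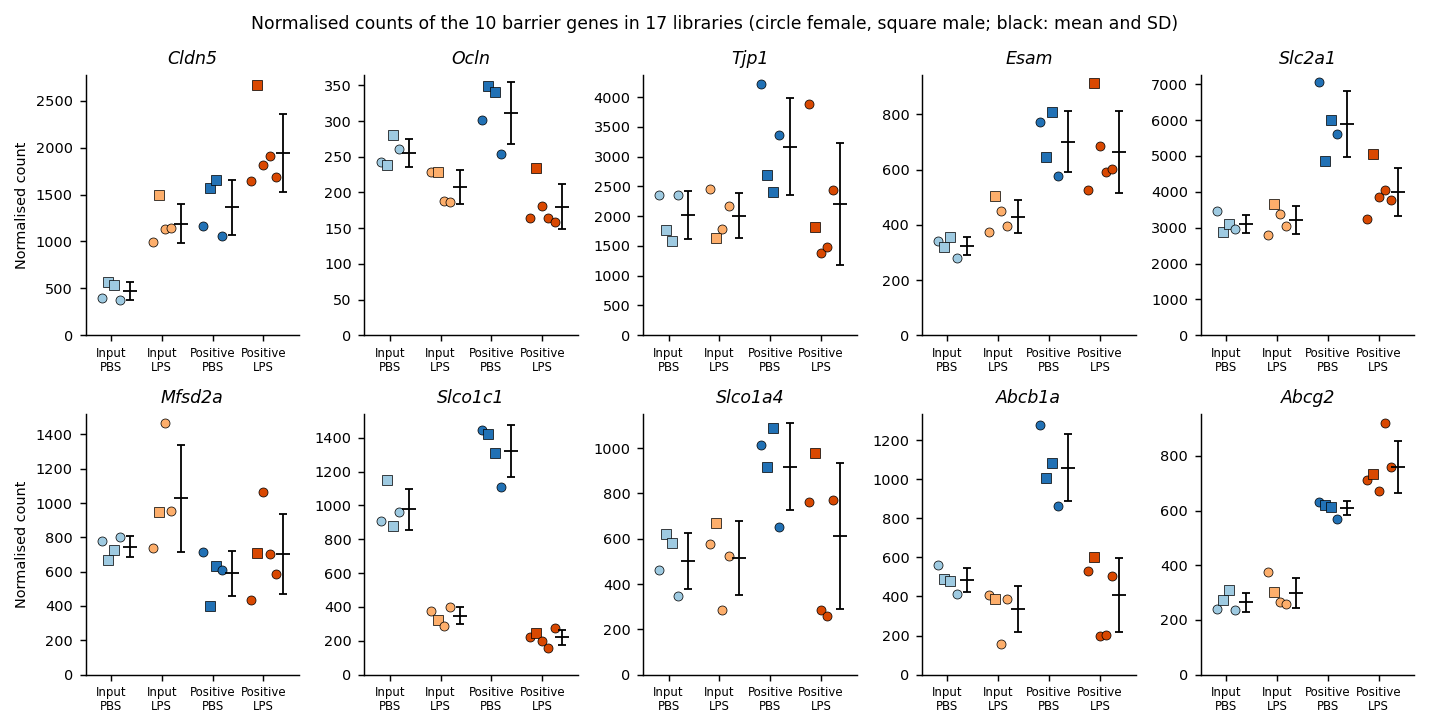
Normalised count of each gene (vertical axis, linear, from 0) in the 17 libraries of the 4 groups, circles for female and squares for male animals, with the group mean and SD in black. Cldn5 is higher in all Input LPS libraries than in any Input PBS library, Slco1c1 is lower after LPS in both fractions without overlap, and Abcb1a and Slco1a4 are spread widely in Positive LPS.

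Cldn5 encodes claudin-5, the main claudin of brain endothelial tight junctions (gene ID 12741, chr16:18776847-18778262, plus strand). Its normalised counts were 402, 569, 541 and 375 in Input PBS and 999, 1489.8, 1135 and 1138 in Input LPS. In the positive fraction they were 1165, 1570.3, 1651 and 1061 with PBS and 1644, 2664, 1815, 1914 and 1688 with LPS. All LPS input libraries thus lay above all PBS input libraries, while in the positive fraction the LPS library of animal 266 lay just below the PBS library of animal 273. The log2 fold change was 1.34 (SE 0.19, adjusted p = 7.13e-05) in input, a 2.52-fold rise. In the positive fraction it was 0.51 (SE 0.17, adjusted p = 0.0235), a 1.43-fold rise. The call in the positive fraction was lost without Positive LPS 267 (0.38), Positive PBS 268 (0.44) or Positive PBS 506 (0.41), and without both libraries of animals 506 and 507 (0.46).

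Ocln encodes occludin, a transmembrane protein of tight junctions (gene ID 18260, chr13:100497367-100552498, minus strand). It held 242, 238, 281 and 262 normalised counts in Input PBS and 228, 229, 188 and 186 in Input LPS. In Positive PBS it held 302, 349, 341 and 254, and in Positive LPS 164, 234, 181, 164 and 158. LPS libraries lay below PBS libraries without overlap in both fractions, although only the positive fraction passed the test. There the log2 fold change was -0.79 (SE 0.14, adjusted p = 1.91e-04), and in input -0.30 (SE 0.14, adjusted p = 0.181). The shares of all tested genes without overlap and lower with LPS were 13% in the positive fraction and 11.5% in input. Occludin and claudin-5 transcripts, both of the tight junction strand, therefore stood on opposite sides of 0 in each fraction.

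Tjp1 encodes ZO-1, the scaffold that ties claudins and occludin to actin (gene ID 21872, chr7:65296165-65371244, minus strand). Its levels varied widely among animals, with 2353, 1766, 1586 and 2363 normalised counts in Input PBS and 2450.3, 1633, 1781 and 2176 in Input LPS. Positive PBS libraries held 4228, 2684, 2401 and 3369, and Positive LPS libraries 3886, 1826, 1378, 1486 and 2442. Animal 266 stood above the other LPS animals in both fractions. The log2 fold change in the positive fraction was -0.53 (SE 0.25, adjusted p = 0.102) and was not called, but without Positive LPS 266 it was -0.83 (adjusted p = 0.00352) and with the animal as a block, fitted in limma, -0.61 (adjusted p = 0.0347), both called. In input it was -0.0050, with a 95% interval from -0.56 to 0.55.

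Esam, an immunoglobulin-type adhesion molecule of endothelial contacts (gene ID 69524, chr9:37528089-37538319, plus strand), held 341, 321, 356 and 280.0 normalised counts in Input PBS and 374, 503, 449 and 394 in Input LPS. In Positive PBS it held 774, 646, 809 and 576, and in Positive LPS 527, 913, 686, 593 and 601. The input groups did not overlap, LPS being higher as for 12.6% of all tested genes, and the log2 fold change of 0.41 (SE 0.16) missed the threshold at an adjusted p of 0.102. It passed with sex as a covariate (0.47, adjusted p = 0.0296) and with the input groups fitted alone (0.40, adjusted p = 0.0483). The positive fraction groups overlapped fully, at -0.078 (95% interval -0.39 to 0.24).

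**Figure D2:**
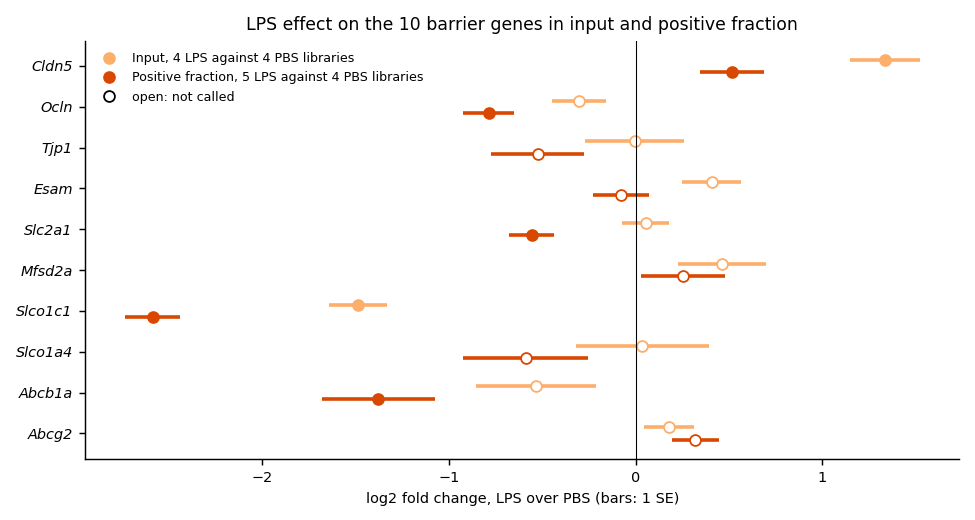
Log2 fold change of LPS over PBS (horizontal axis, bars of 1 SE) for each gene in input (light) and in the positive fraction (dark), with open circles where the gene was not called. In 9 of the 10 genes, Abcg2 being the exception, the positive fraction lies to the left of input.

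Slc2a1 encodes GLUT1, the glucose carrier of barrier endothelium, which astrocytes also express (gene ID 20525, chr4:119108745-119137329, plus strand). Input PBS held 3458, 2893, 3091 and 2971 normalised counts and Input LPS 2791, 3669, 3373 and 3044. Positive PBS held 7057, 4855, 6003 and 5611 and Positive LPS 3246, 5064, 3852, 4055 and 3781. Input groups were interleaved, whereas in the positive fraction only the LPS library of animal 267 rose above the lowest PBS library. In the positive fraction the log2 fold change was -0.56 (SE 0.12, adjusted p = 0.00128), a fall to 0.680 of the PBS level, and 0.053 in input (95% interval -0.22 to 0.32).

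Mfsd2a carries lysophosphatidylcholine with docosahexaenoic acid into the brain and is needed for the low rate of transcytosis at the barrier (gene ID 76574, chr4:122946851-122961188, minus strand). It held 780.2, 669, 727 and 804 normalised counts in Input PBS and 739, 946, 1467 and 955 in Input LPS. In Positive PBS it held 714, 401, 634 and 607, and in Positive LPS 434, 711, 1066, 701 and 587. Animal 270 gave the highest value of the LPS group in each fraction, and the groups overlapped in both. The log2 fold changes of 0.46 in input (SE 0.23, adjusted p = 0.208) and 0.25 in the positive fraction (SE 0.22, adjusted p = 0.386) were not called. Over omissions of 1 library they ran from 0.24 to 0.59 in input and from 0.054 to 0.39 in the positive fraction, the lowest value in each fraction being that without its library of animal 270.

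Slco1c1 encodes OATP1C1, which carries thyroxine across brain capillaries and is also made by astrocytes (gene ID 58807, chr6:141524386-141570177, plus strand), and it gave the largest change of the 10 genes. Input PBS libraries held 911, 1153, 881 and 961 normalised counts and Input LPS libraries 377, 326, 289.6 and 398. Positive PBS libraries held 1447, 1421, 1311 and 1110.1 and Positive LPS libraries 224, 246, 201, 154 and 274. Every LPS library lay below every PBS library, also across fractions. Its log2 fold change was -1.49 in input (SE 0.15, adjusted p = 2.74e-06), a 2.81-fold fall, and -2.59 in the positive fraction (SE 0.15, adjusted p = 5.37e-10), a 6.01-fold fall. None of the 25 alternative fits ended either call.

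Slco1a4 encodes OATP1A4, a carrier of organic anions including steroid conjugates (gene ID 28250, chr6:141805440-141856171, minus strand), and lies 235 kb from Slco1c1 on chromosome 6, on the opposite strand. Input PBS held 459.8, 622, 581 and 345 normalised counts and Input LPS 578, 671, 286 and 523. Positive PBS held 1015, 915, 1091 and 654 and Positive LPS 762, 979.8, 286, 257 and 771. The input library of animal 270 and the positive libraries of animals 270 and 271 were the lowest of their groups, and the other 3 Positive LPS libraries lay within the PBS range. The log2 fold change was -0.59 in the positive fraction (SE 0.33, adjusted p = 0.169), not called, and -0.77 with the animal as a block in limma (adjusted p = 0.0463), called. Over omissions of 1 library the edgeR value ran from -0.82 to -0.39. In input it was 0.036, with a 95% interval from -0.71 to 0.78. Of the related genes, Slco1a1, Slco1a5 and Slco1a6 stayed below the filter, with group means of at most 13.9 normalised counts.

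Abcb1a encodes the P-glycoprotein typical of mouse brain capillaries (gene ID 18671, chr5:8660092-8748570, plus strand). It held 559, 487, 479 and 412 normalised counts in Input PBS and 408, 386, 158 and 386 in Input LPS. In Positive PBS it held 1279.7, 1009, 1083 and 866, and in Positive LPS 528, 603, 199, 205 and 505. LPS libraries lay below PBS libraries without overlap in both fractions, and animals 270 and 271 were again the lowest. With LPS the log2 fold change was -1.38 in the positive fraction (SE 0.30, adjusted p = 0.00144), a 2.60-fold fall, and -0.54 in input (SE 0.32, adjusted p = 0.298), not called. Without Input LPS 270 the value in input was -0.30.

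Its paralog Abcb1b moved the other way, from 86.2 ± 14.8 to 198 ± 67.5 normalised counts in input (log2 fold change 1.20, adjusted p = 8.46e-04) and from 160 ± 25.5 to 231 ± 37.7 in the positive fraction. Of the stretches of 42 bases in Abcb1a transcripts, the length of a trimmed read, 18.3% also occur in Abcb1b, so that a share of the reads could be assigned to either gene and both values carry that uncertainty. The corresponding share with any other gene was 2.39% for Slco1a4, 1.29% for Abcg2 and 0 for the other 7 members.

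Abcg2 encodes BCRP, the other main efflux pump of brain capillaries, which several other cell types also make (gene ID 26357, chr6:58596672-58692451, plus strand). Input PBS held 239, 272, 310.3 and 235 normalised counts and Input LPS 377, 300.4, 264 and 258. Positive PBS held 629.7, 620.2, 614 and 570.2 and Positive LPS 712, 734, 671, 919.7 and 760.3. In the positive fraction all LPS libraries lay above all PBS libraries, as for 17.1% of all tested genes. The log2 fold change of 0.32 (SE 0.12) had an adjusted p of 0.0475, but its fold of 1.248 fell just short of the threshold. It passed with TMM scaling (0.33), with sex as a covariate (0.34), with all 18 libraries scaled together (0.37), without Positive LPS 266 (0.35) and without Positive LPS 270 (0.36). In 20 of 25 alternative fits Abcg2 stayed uncalled. Scaling all 18 libraries also moved the median of all tested genes in this comparison, from 0.011 to 0.060. The pumps thus stood on opposite sides of 0 in the positive fraction.

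**Figure D3:**
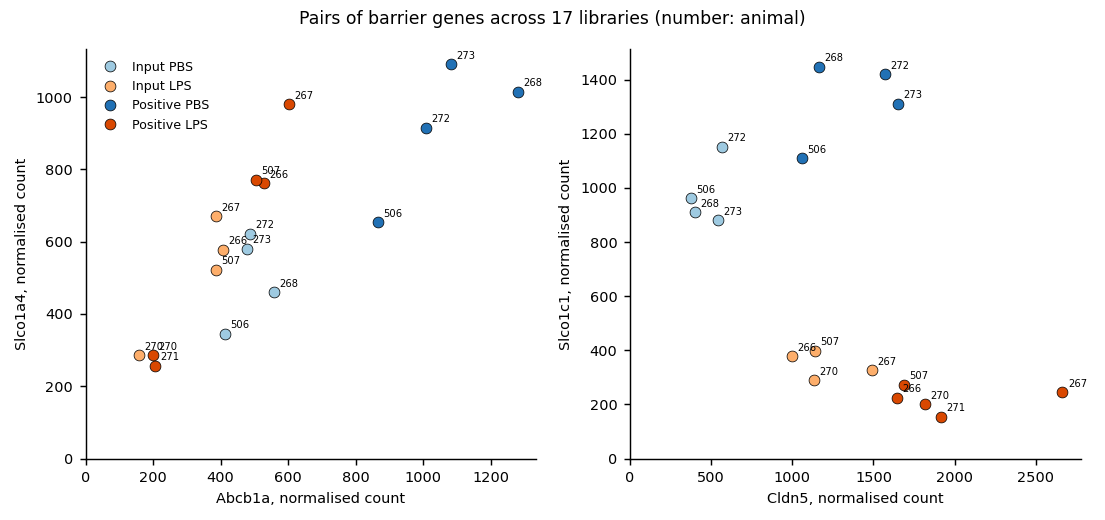
Normalised counts of Slco1a4 against Abcb1a (left) and of Slco1c1 against Cldn5 (right) in the 17 libraries, with the group by colour and the animal as a number. On the left the libraries of LPS animals 270 and 271 lie lowest for both genes, and on the right every LPS library lies below every PBS library for Slco1c1.

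The next comparison asked how far each gene was represented in the pull-down. With PBS, 6 of the 10 genes were called, all of them higher in the positive fraction than in input, where 39.8% of all tested genes were called, 21% higher and 18.8% lower. None of the 10 was called lower, 0 also at an unadjusted p under 0.05 and with DESeq2. Log2 ratios were 1.53 for Cldn5, 1.20 for Abcg2, 1.13 for Abcb1a, 1.11 for Esam, 0.92 for Slc2a1 and 0.44 for Slco1c1. The last of these calls was lost without any 1 of Input PBS 268, Positive PBS 268, Positive PBS 272 and Input PBS 273 (0.41, 0.39, 0.40 and 0.39). Slco1a4 (0.87, adjusted p = 0.0532) and Tjp1 (0.65, adjusted p = 0.0528) narrowly missed the threshold although their groups did not overlap, as for 25.2% of all tested genes, and Mfsd2a was the only member with a ratio below 0 (-0.34). With the animal as a block, 8 were called higher and 1 lower, adding Slco1a4 (adjusted p = 1.22e-05), Tjp1 (4.06e-04) and Mfsd2a (0.00691), where 22.6% and 22.4% of all genes tested were called. Values of all 10 genes lay below those of the microglial markers in the same comparison, which ranged from 1.92 to 4.43.

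In LPS animals the picture was mixed: Abcg2 (1.34), Cldn5 (0.71) and Esam (0.63) were higher in the positive fraction, and Slco1c1 (-0.66) and Mfsd2a (-0.55) lower. Of all tested genes 53.4% were called, 27.6% higher and 25.8% lower. The call for Mfsd2a was lost without any 1 of Positive LPS 266, 267, 271 or 507 or Input LPS 270 or 507, its value being -0.33 without Input LPS 270. Slc2a1 (0.31, adjusted p = 0.0335) missed the fold threshold. With the animal as a block Abcb1a (0.44, adjusted p = 3.80e-04) and Slco1a4 (0.39, adjusted p = 0.00604) were called higher as well, as were 27.7% of all genes tested.

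The ratio of the fractions was also taken within each of the 8 animals with both libraries. The log2 ratio of Cldn5 was 1.53, 1.47, 1.61 and 1.50 in PBS animals 268, 272, 273 and 506, and 0.72, 0.84, 0.68 and 0.57 in LPS animals 266, 267, 270 and 507. For Slco1c1 the same ratios were 0.67, 0.30, 0.57 and 0.21 with PBS and -0.75, -0.41, -0.53 and -0.54 with LPS. In both genes every LPS animal thus lay below every PBS animal, and for Slco1c1 the sign changed. For Slc2a1 the ratios were 1.03, 0.75, 0.96 and 0.92 with PBS and 0.22, 0.47, 0.19 and 0.31 with LPS, and for Abcb1a 1.19, 1.05, 1.18 and 1.07 and 0.37, 0.64, 0.33 and 0.39. Esam ranged from 1.01 to 1.18 with PBS and from 0.49 to 0.86 with LPS. These 5 genes had no overlap, all lower with LPS, where 8.42% of genes with a count in every paired library did so. The mean ratio of Abcg2 differed between treatments by less than its spread, 1.21 ± 0.17 with PBS and 1.28 ± 0.27 with LPS (SD, n = 4 each).

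**Figure D4:**
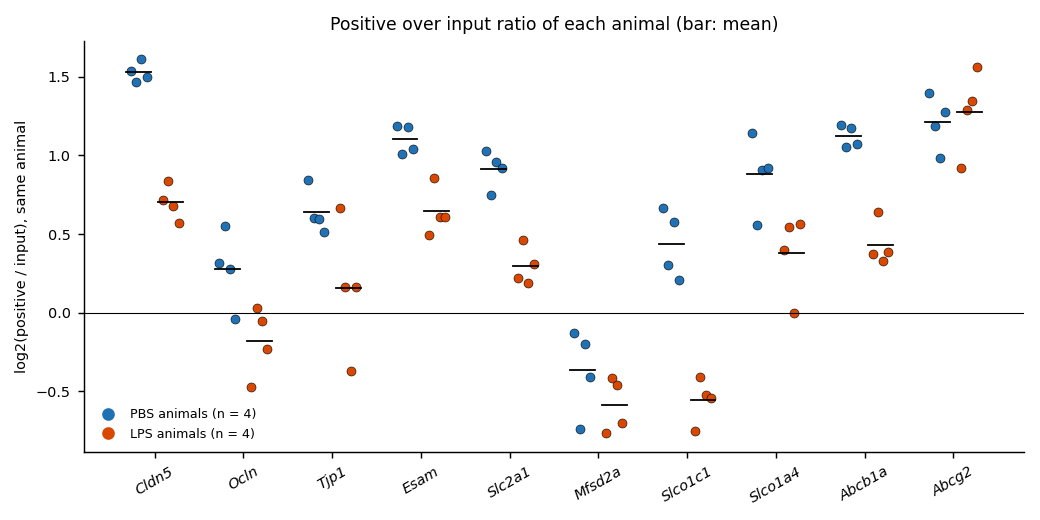
Log2 ratio of the positive fraction over input in the same animal (vertical axis) for each gene, 4 PBS animals (blue) and 4 LPS animals (orange), with bars for the means. Cldn5, Esam, Slc2a1, Slco1c1 and Abcb1a have no overlap between treatments, and only Abcg2 has a higher mean with LPS.

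Whether LPS acted differently in the positive fraction and in input was tested as a difference of the 2 LPS effects. It was called for Slco1c1 (-1.10, SE 0.21, adjusted p = 0.00328) and Slc2a1 (-0.61, SE 0.18, adjusted p = 0.0429), both lower in the positive fraction, where 6.88% of all tested genes were called, 1.42% lower and 5.46% higher. The call for Slc2a1 stood close to the threshold: it held without Input LPS 266, Positive LPS 267, Input PBS 268 or Positive PBS 272, and was lost without any other 1 of the 17 libraries. Over all 17 omissions its value ran from -0.70 to -0.51. Cldn5 (-0.82, SE 0.25, adjusted p = 0.0563) just missed the threshold, and was called by DESeq2 (adjusted p = 0.0199) and without Positive LPS 267, Input PBS 272 or Positive PBS 506 (-0.96, -0.92 and -0.92). With the animal as a block 5 genes were called, all lower, where 3.91% of all genes tested were: Cldn5 (-0.82, adjusted p = 8.17e-05), Slco1c1 (-0.99, adjusted p = 3.04e-04), Slc2a1 (-0.61, adjusted p = 8.13e-04), Abcb1a (-0.68, adjusted p = 0.00169) and Esam (-0.46, adjusted p = 0.0229). The difference was below 0 for 9 of 10 genes, with a median of -0.57 against -0.017 for all tested genes. The endothelial identity list moved alongside: 20 of 20 genes were below 0, with a median of -0.73 and 3 called. This direction was not particular to it. All 10 microglial, 10 astrocyte, 8 neuronal and 18 Wnt and barrier regulator genes were also below 0, at medians of -0.23, -0.13, -0.18 and -0.30. Of oligodendrocyte genes 0 of 6 were below 0, and the other lists were mixed. The part of these lists in the members' values was not tested.

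The wider genes of the pathway were examined by list. Of 26 further junction genes tested, 1 was called higher and 5 lower with LPS in the positive fraction, and 2 higher and 1 lower in input. Over all tested genes, 19% were called higher and 14.9% lower with LPS in the positive fraction. In input the shares were 7.16% higher and 5.26% lower, and the LPS counts of the lists below compare with the same shares. Cldn10, a claudin of epithelia and astrocytes, fell in both fractions, from 526 ± 91.5 to 272 ± 63.1 normalised counts in the positive fraction (log2 fold change -0.95, adjusted p = 3.10e-04) and by -0.86 on the log2 scale in input. Jam2, an adhesion molecule of endothelial junctions, fell in the positive fraction (-0.64, adjusted p = 7.43e-05), and Ctnnd1, p120-catenin, rose (0.43). Cdh5, VE-cadherin, rose in input as Cldn5 did (0.78, adjusted p = 0.0147; 0.70 and not called without Input PBS 506), as did Cldn1 (0.89, adjusted p = 0.0418). The call for Cldn1 was lost on omitting Positive PBS 272 or any 1 of the input libraries 266, 267, 270, 272, 273, 506 and 507, at values from 0.76 to 0.95.

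Of 28 further transporters tested, the positive fraction gave 11 called lower and 4 higher with LPS, and 3 in each direction in input. Slc22a8, OAT3, an organic anion carrier of barrier endothelium and choroid plexus, fell from 365 ± 50.5 to 60.2 ± 13.9 normalised counts in the positive fraction (log2 fold change -2.59) and by -1.86 on the log2 scale in input, close to the values of Slco1c1. Slc40a1, the iron exporter ferroportin (-1.97), and Atp10a, a phospholipid flippase (-1.60), fell in the positive fraction, and Slc38a3, a glutamine carrier, fell in input (-0.98). The Positive LPS libraries of Slc40a1 were widely spread, at 139 ± 144 normalised counts, and its change had an SE of 0.41 (adjusted p = 9.17e-04). The median over the 28 genes was -0.25 in the positive fraction and -0.13 in input.

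Of 10 genes of caveolae and transcytosis, the vesicle route that Mfsd2a restrains, 5 were called lower and 1 higher in the positive fraction and 1 lower in input. Cav1, caveolin-1, fell from 376 ± 40.4 to 114 ± 43.2 normalised counts in the positive fraction (log2 fold change -1.73, adjusted p = 2.46e-05) and by -0.99 on the log2 scale in input (adjusted p = 0.0136). The cavins Sdpr (-1.54) and Ptrf (-0.81) fell in the positive fraction. Of 18 genes of Wnt signalling and barrier regulation, 7 were called lower and 1 higher in the positive fraction, and 2 each way in input. Sox17, an endothelial transcription factor, fell in both fractions (-1.54 and -1.001). In the positive fraction the Wnt7 co-receptor Reck (-0.94) and the Wnt effector Lef1 (-0.79) fell. In input Tnfrsf19 fell (-0.42) and Apcdd1 rose (0.91, adjusted p = 7.62e-05). Naming a gene for 1 fraction follows the size of its change and does not make the change particular to that fraction.

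**Figure D5:**
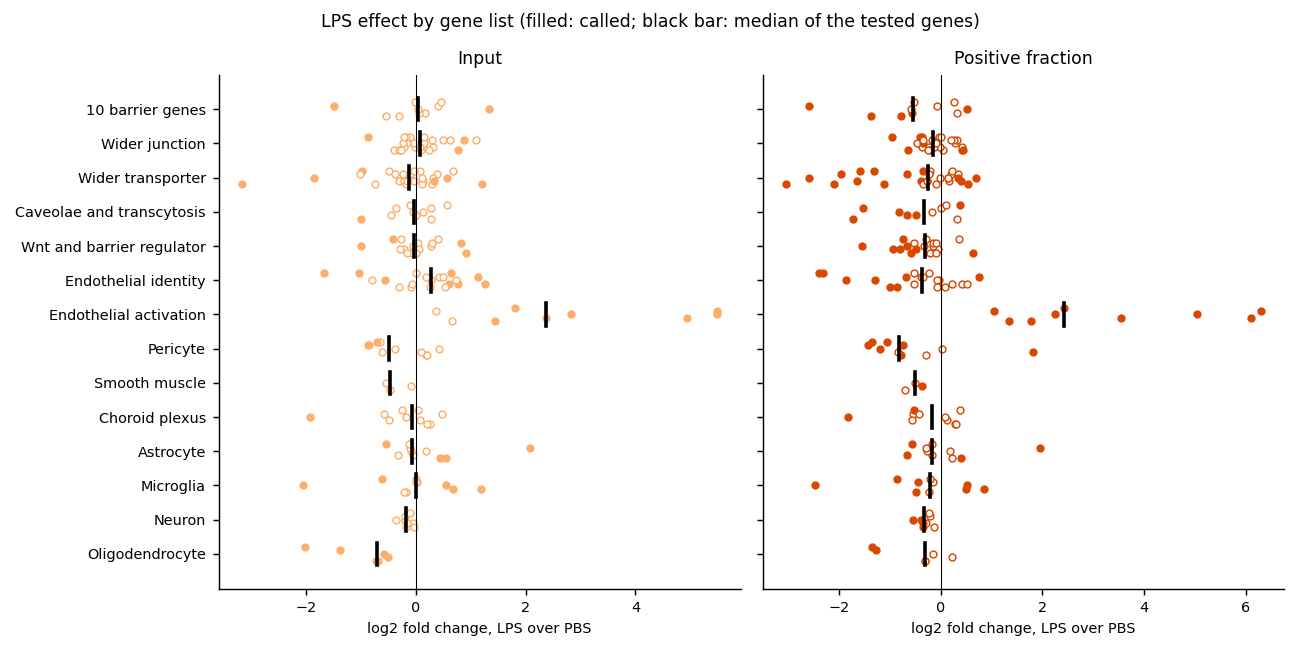
Log2 fold change of LPS over PBS (horizontal axis) of every tested gene of each list, in input (left) and in the positive fraction (right), filled where called, with a black bar at the median. Endothelial activation genes lie to the right of 0 in both fractions. The medians of the 10 barrier genes, of endothelial identity genes and of caveolae genes are further left in the positive fraction than in input. Most other lists have the same order of medians. Oligodendrocyte genes have the opposite order, as do endothelial activation genes by a small margin (2.42 in the positive fraction and 2.38 in input).

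Endothelial genes moved in both directions. Of 20 endothelial identity genes, 7 were called lower and 1 higher with LPS in the positive fraction, and 3 lower and 5 higher in input, with medians of -0.37 and 0.28. Their summed level ranged from 6667 to 8742 normalised counts in Input PBS and from 6787 to 10446 in Input LPS, overlapping. In the positive fraction it ranged from 16415 to 21686 with PBS and from 13307 to 21168 with LPS, also overlapping. Cdh5 stands both in this list and among the junction genes, and Fli1, which myeloid cells also make, had the highest enrichment of the list in the positive fraction of PBS animals (log2 ratio 3.24). Itm2a (-2.39 in the positive fraction, -1.66 in input), Pltp, a phospholipid transfer protein (-2.33 in the positive fraction), and Tek, the angiopoietin receptor TIE2 (-1.86 in the positive fraction), fell, while Ly6a (1.254) and Emcn, endomucin (1.13), rose in input. Pltp and Tek were named for the positive fraction, and Ly6a and Emcn for input, by size of change. In the other fraction Pltp (-1.03 in input) and Emcn (0.75 in the positive fraction) were also called. Tek (-0.79 in input, adjusted p = 0.139) and Ly6a (0.53 in the positive fraction, adjusted p = 0.123) were not. Endothelial activation genes, the adhesion molecules and other genes that endothelium makes on inflammation, were called higher in 9 of 9 cases in the positive fraction and 7 of 9 in input. In PBS animals Icam1 (log2 ratio 2.31) and Vcam1 (0.83) were called higher in the positive fraction than in input, and Ptgs2 lower (-1.31). The cells in which these genes rose were not tested. Sele and Selp started from means of 2.71 and 3.71 normalised counts in Input PBS and 0.932 and 4.15 in Positive PBS. Lcn2, lipocalin-2, which astrocytes also make, went from 179 ± 38.9 to 7997 ± 1737 normalised counts in input, and Icam1 from 116 ± 19.0 to 826 ± 278. Ch25h rose in the positive fraction and in input (log2 fold changes 3.54 and 2.38), as did Lrg1 (2.42 and 1.80) and Icam1 (2.24 and 2.83).

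Markers of other cell types that the lysate holds moved as well, and their part in the members' values was not tested. Of 10 pericyte genes, 6 were called lower and 1 higher with LPS in the positive fraction and 3 lower in input. Their summed level ranged from 4254 to 4817 normalised counts in Input PBS, from 3129 to 3609.6 in Input LPS, from 2562 to 5032 in Positive PBS and from 2038 to 2839.8 in Positive LPS. Astrocyte genes, whose cells also make Slc2a1 and Slco1c1, gave 2 higher and 2 lower in the positive fraction and 3 higher and 1 lower in input. Their sum in input rose from between 116830.3 and 127394 to between 132641 and 142215. That sum does not describe most of the list. Gfap alone went from a mean of 7408 to 31173 in input, whereas 6 of 10 genes were below 0, at a median log2 fold change of -0.063. All 6 oligodendrocyte genes were called lower with LPS in input. Microglial genes gave 3 higher and 4 lower in the positive fraction, with sums from 225766 to 268099 with PBS and from 197815 to 274424 with LPS. Of 8 neuronal genes 4 were called lower with LPS in the positive fraction. Of 10 choroid plexus genes 6 were called lower in the positive fraction than in input in PBS animals, as were 18.8% of all tested genes. No marker in these lists had a group mean of 0.

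The genes whose levels ordered the 17 libraries most like Cldn5 were Igfbp7 (Spearman's rho 0.98), Lypla2 (0.96), Cyb5r3 (0.96), Hmga1 (0.96) and Klf4 (0.96). These libraries share animals, fractions and treatments, so that rho describes mainly the order of the 4 groups. Igfbp7, which is abundant in brain capillaries, was higher in the positive fraction of PBS animals (log2 ratio 1.00) and rose with LPS in input (0.81, adjusted p = 0.0205), but with 0.48 in the positive fraction (adjusted p = 0.0768) it was not called. Klf4, a transcription factor of endothelium and myeloid cells, rose in the positive fraction (0.74, adjusted p = 0.00737).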

How the data were processed

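RNA was taken from brains of 9 mice and strand-specific polyA libraries were sequenced as pairs of 50 bases. The authors trimmed 2 bases at the 5′ and 6 at the 3′ end, aligned reads with their strand in Strand NGS (build mm10), and deposited estimated counts per RefSeq gene (81.6% of nonzero values are not whole) beside log2 values scaled with DESeq, which were used in no comparison here. Estimated counts were rounded, scaled with median-of-ratios size factors (0.766 to 1.32) and fitted with the quasi-likelihood test of edgeR 4.0.16 in R 4.3.3, with 1 mean per group of fraction and treatment over 17 libraries and 13 residual degrees of freedom. Genes above 20 normalised counts in all libraries of at least 1 group were tested, and SE is the log2 fold change divided by the root of F. The fit was tested on simulated data. Animal 271's input library, with 1252 counts, was not used. The other libraries held 22968939 to 35123345 counts. The files were taken to hold counts when the tests were chosen.

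Deviations from the group means of input and positive libraries of the same animal correlated (r from 0.162 to 0.519 over 8 animals), and the labels give the animal, so libraries are paired. A fit with the animal as a block was run with edgeR for the fractions and with limma 3.58.1 (voom, consensus correlation 0.445) for LPS. Other alternatives were TMM, DESeq2 1.42.0, no filter, all 18 libraries, sex, omission of animals 506 and 507, fits of the compared groups alone, and omission of each library. The members and lists were chosen with earlier results of these data known. Named genes of the lists are the 3 called genes of largest change per LPS comparison in each barrier or endothelial list, at a mean normalised count of 100 or more, the 5 genes correlated most with Cldn5, and paralogs. Exon length is the union of exons of GENCODE vM21. Intervals and p-values cover the spread among these animals only.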

Additional observations from a re-analysis of the deposited data

Results flagged for a closer look

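Among the 40 sets of values given by 10 genes in 4 groups, 2 held a library that stood apart by Dixon's ratio, where chance gives about 1 in 20. Cldn5 in the Positive LPS library of animal 267 was at 2664 normalised counts, against 1644 to 1914 in the other 4 libraries. Abcb1a in the Input LPS library of animal 270 was at 158.0 normalised counts, against 386 to 408 in the other 3.

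The response to LPS differed between the fractions, by the test of the difference itself, for Slco1c1 (log2 difference of -1.10, positive minus input, adjusted p = 0.00328) and for Slc2a1 (-0.61, adjusted p = 0.0429). For Slco1c1 the positive over input ratio was lower in every LPS animal than in every PBS animal, and so was that of Slc2a1.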

How the results depend on the processing

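Of 1240 values for the 10 genes in the 5 comparisons, 1148 kept their direction and their side of the threshold, 32 lost a call, 45 gained one and 15 changed sign. The changes of sign were in values near 0 that were not called. For LPS in input, Tjp1 was 0.015 with all 18 libraries and 0.040 without animals 506 and 507, and -0.11 to 0.082 over omissions of 1 library. Slco1a4 was -0.11 without animals 506 and 507 and -0.11 with the animal as a block, and -0.12 to 0.24 over omissions, and Slc2a1 -0.016 to 0.12. Over omissions the ratio of positive to input in LPS animals ran from -0.17 to 0.26 for Tjp1, and the difference of LPS effects from -0.41 to 0.0095 for Mfsd2a. The count of genes called for the difference was 2, 1 without animals 506 and 507 and 5 with the animal as a block (all genes 1018, 323 and 1916). Over omissions of 1 library the counts of the 10 genes called ran from 1 to 3 for the difference, 4 to 7 for LPS in the positive fraction, 2 to 2 in input, 5 to 8 for positive against input with PBS and 4 to 6 with LPS. The fits with the animal as a block changed no call of the 10 genes other than those given above as called with the block. Some of these calls were also gained in other fits. The PBS ratio of Slco1a4, for example, was called by edgeR with sex as a covariate (adjusted p = 0.0253). For LPS the fits with the animal as a block also changed the tool, from edgeR to limma. Pairing and tool therefore cannot be told apart in the calls that those fits gained for Tjp1 and Slco1a4. Without animals 506 and 507, 1083 genes rather than 1839 were called for LPS in input, and Ly6a, Cav1, Cldn1 and Tnfrsf19 were not among them. That fit had fewer samples and also lacked these animals, and the part of each cannot be told apart. Scaling all 18 libraries together, the nearly empty one included, shifted the median log2 ratio of positive to input over all genes to -0.12 with PBS and -0.11 with LPS, and the share of calls that were higher from 52.8% to 37.6% and from 51.7% to 43.2%, and Slco1c1 (0.31, PBS) and the difference for Slc2a1 (-0.58) were then not called.

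With 4 or 5 libraries per group the intervals are wide for genes that vary among animals, from -0.71 to 0.78 for LPS on Slco1a4 in input. Of the 9 animals 3 were male, 2 with PBS and 1 with LPS, and all libraries come from 24 h after injection. No library came from mice without Cre.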

Other observations

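In each of the 4 groups the libraries of male animals held more Cldn5 than those of female animals, which was noticed after the values were seen. In Input PBS the males 272 and 273 had 569 and 541 normalised counts and the females 268 and 506 had 402 and 375. In Input LPS the male 267 had 1490 and the females 999 to 1138. Cldn5 was the only 1 of the 10 genes with this order, which 1.97% of all tested genes had. Only 3 of the animals were male, so the order is given as a description, with no test. With sex as a covariate the LPS effect on Cldn5 in the positive fraction was 0.68, and the difference of its LPS effects was called (-0.80, adjusted p = 1.13e-04 by edgeR).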
